A study of Mus musculus with 36 samples.

Results

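Cadherins outside the clustered protocadherin arrays and the catenins that bind them were described here in mouse embryonic stem cells (ESCs) and in the neural stem cells (NSCs) grown from such cells. Members were the genes named Cdh or Pcdh with a number, Celsr1 to Celsr3, Fat1 to Fat4, Dchs1 and Dchs2, and the α-, β- and δ-catenins; Cdh1 was left out. Of the 48 annotated genes with such names, 44 were listed in at least 1 of the deposited expression tables, among 19426 genes in all. The ESC table held 30 of them among 17036 genes, the NSC table held 43 among 17771 genes, and 29 were in both. Fat2 was listed in ESCs alone and 14 members in NSCs alone, and Cdh12, Cdh16, Cdh19 and Ctnna3 were in neither table. By role, the 44 were 4 type I and 11 type II classical cadherins, 3 atypical cadherins and 2 large cadherins of the inner ear. The others were 10 non-clustered protocadherins, 9 large cadherins of the Celsr, Fat and Dchs families, and 5 catenins.

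The study compared cells in which Tet1, Tet2 and Tet3 were all disrupted (TKO) with wildtype (WT) cells, as ESCs and as NSCs. TET enzymes oxidize 5-methylcytosine in DNA. RNA-seq was made of 2 TKO and 3 WT samples per cell type, and 1 TKO and 1 WT NSC library were made by promoter capture Hi-C. All cells descended from male V6.5 ESCs, a line of mixed 129 and C57BL/6 background. ESCs had been preplated for 45 minutes to remove feeder cells and then held on gelatin for 24 hours in medium with serum and LIF, and NSCs were taken at day 6, passage 1. The TKO samples carry the line codes c2 and h7 in both cell types, so each TKO sample is 1 line, and the labels do not say whether the 3 WT codes are separate lines. P-values therefore measure the spread between these samples.

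Classical cadherins are calcium-dependent adhesion receptors that hold cells of like type together at adherens junctions. Their cytoplasmic tails bind β-catenin and p120 catenin, and α-catenin links the complex to actin. When neural tissue forms from pluripotent cells, the epithelial Cdh1 gives way to Cdh2, and other cadherins then mark regions and cell groups of the nervous system. Protocadherins outside the clusters adhere more weakly and act in cell sorting and wiring, Celsr proteins act in planar cell polarity, and Fat4 and Dchs1 form a receptor and ligand pair.

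The libraries held 41007791 to 49060991 reads, recovered as whole numbers from the deposited values, and this total appears to count both mates of a pair. As a check of the labels, Tet1 had 4635 and 4966 normalized counts in the TKO ESC libraries, against 12237, 10599 and 9634 in the WT ESC libraries, and Tet3 in NSCs had 2379 and 2597 in TKO and 4050, 4089 and 4208 in WT. Tet1 and Tet3 were thus lower and not absent in TKO. Tet2 had 1700 and 1661 in TKO ESCs and 2893, 2438 and 2156 in WT ESCs, which do not overlap, but 1146 and 1555 in TKO NSCs and 1276, 1295 and 1066 in WT NSCs, which overlap. Marker lists of cell types moved with genotype in NSCs, where 18.2% of all genes were called higher in TKO and 19.5% lower. The summed level of 9 markers of neural stem cells and radial glia was 185177 and 193284 normalized counts in TKO NSCs, against 361777 to 374396 in WT NSCs, and 7 of the 9 fell. The sum of 9 markers of feeder fibroblasts and mesenchyme was 142644 and 121395 in TKO and 47043 to 59609 in WT, and 7 rose and 1 fell. The sum of 8 pluripotency markers was 5563 and 2800 in TKO and 635 to 868 in WT, and 6 rose. The part of these shifts in the changes of the members in NSCs was not tested. In bulk samples, fewer cells of a type and less RNA per cell cannot be told apart.

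The promoters of members were compared by their count of CpG, the dinucleotide that TET enzymes act on when methylated. RefSeq promoter sequences (GRCm38.p6) were matched for 32 of the 44 members. The letters CG, which read the same on both strands, were counted in the 250 bases before the start. Only the first promoter entry of each gene was used. For some members that entry lies well inside the gene, as for Fat1, with a start at 44950208 in a gene that begins at 44933100. Members had a median of 14.5 CpG (0 to 35), and 62.5% of them had at least 10. Over all 27025 genes of the promoter table the median was 6 and the share 38.2%. These genes were not limited to those listed in the expression tables, as the members were, and the part of this in the difference was not tested. The 6 promoters shown are of members with large changes in TKO, those of Cdh22 and Cdh26 falling in NSCs, those of Pcdh17, Pcdh18 and Pcdh20 rising there, and that of Celsr3 changing in opposite directions in the cell types. Each line gives up to 120 bases just before the annotated gene, 5′ to 3′ on the gene's strand, with CpG in capitals.
Cdh22 (chr2:165234925-165234987, minus strand): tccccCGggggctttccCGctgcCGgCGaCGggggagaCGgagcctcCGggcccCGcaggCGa
Cdh26 (chr2:178430395-178430514, plus strand): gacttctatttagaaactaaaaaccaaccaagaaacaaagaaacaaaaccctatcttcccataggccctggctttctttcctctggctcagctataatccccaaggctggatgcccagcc
Pcdh17 (chr14:84443443-84443562, plus strand): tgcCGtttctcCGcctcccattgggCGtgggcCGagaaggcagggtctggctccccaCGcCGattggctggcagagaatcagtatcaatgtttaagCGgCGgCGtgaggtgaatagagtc
Pcdh18 (chr3:49757384-49757503, minus strand): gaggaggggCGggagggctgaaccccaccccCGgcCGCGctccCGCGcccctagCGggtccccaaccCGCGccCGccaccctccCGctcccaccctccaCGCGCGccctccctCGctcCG
Pcdh20 (chr14:88471397-88471516, minus strand): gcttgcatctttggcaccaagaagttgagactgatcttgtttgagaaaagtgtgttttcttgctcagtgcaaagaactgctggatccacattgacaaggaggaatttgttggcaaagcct
Celsr3 (chr9:108825903-108826022, plus strand): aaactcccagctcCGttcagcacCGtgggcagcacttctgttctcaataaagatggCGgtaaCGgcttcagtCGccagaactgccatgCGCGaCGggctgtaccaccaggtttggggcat
Members that fell and members that rose both had promoters with many CpG and with few. Cdh22, which fell, has 9 CpG in the 63 bases shown, and Pcdh18, which rose, has 16 in 120. Cdh26, which fell, and Pcdh20, which rose, have 0 in the bases shown, and 0 and 3 over the full 250. Over these 250 bases, the 6 matched members lower in TKO NSCs had 0 to 32 CpG (median 21.5), the 12 higher ones had 2 to 27 (median 16.5), and the 13 that did not pass had 2 to 35 (median 11).

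In NSCs, the classical and atypical cadherins Cdh4, Cdh22, Cdh20, Cdh13 and Cdh26 fell in TKO by more than the spread between samples. Celsr1 and Celsr2 fell with them, and 8 of the 10 non-clustered protocadherins rose. Cdh2, the main classical cadherin of the neural epithelium, fell to 0.557 times its WT level. The β-catenin and p120 catenin genes Ctnnb1 and Ctnnd1 did not pass the test. With limma (adjusted p under 0.05 over all genes), 16 of the 43 members were higher in TKO and 11 were lower, against 18.2% higher and 19.5% lower, or 37.7% in either direction, of all 17744 genes tested. Of these, 9 were higher and 7 lower by at least 2-fold, against 5.86% and 6.99% of all genes. The median log2 fold change, TKO over WT on log2(normalized count + 1), was 0.31 over the members and 0.01 over all genes. All 43 passed the filter on low values, but the tables list no gene under 51 reads in total. Pcdh12 and Cdh9 in NSCs and Cdh22 in ESCs were listed through the genotype in which they are high. Their calls, which are part of the counts given, and their ratios are conditional on that listing.

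**Figure D1:**
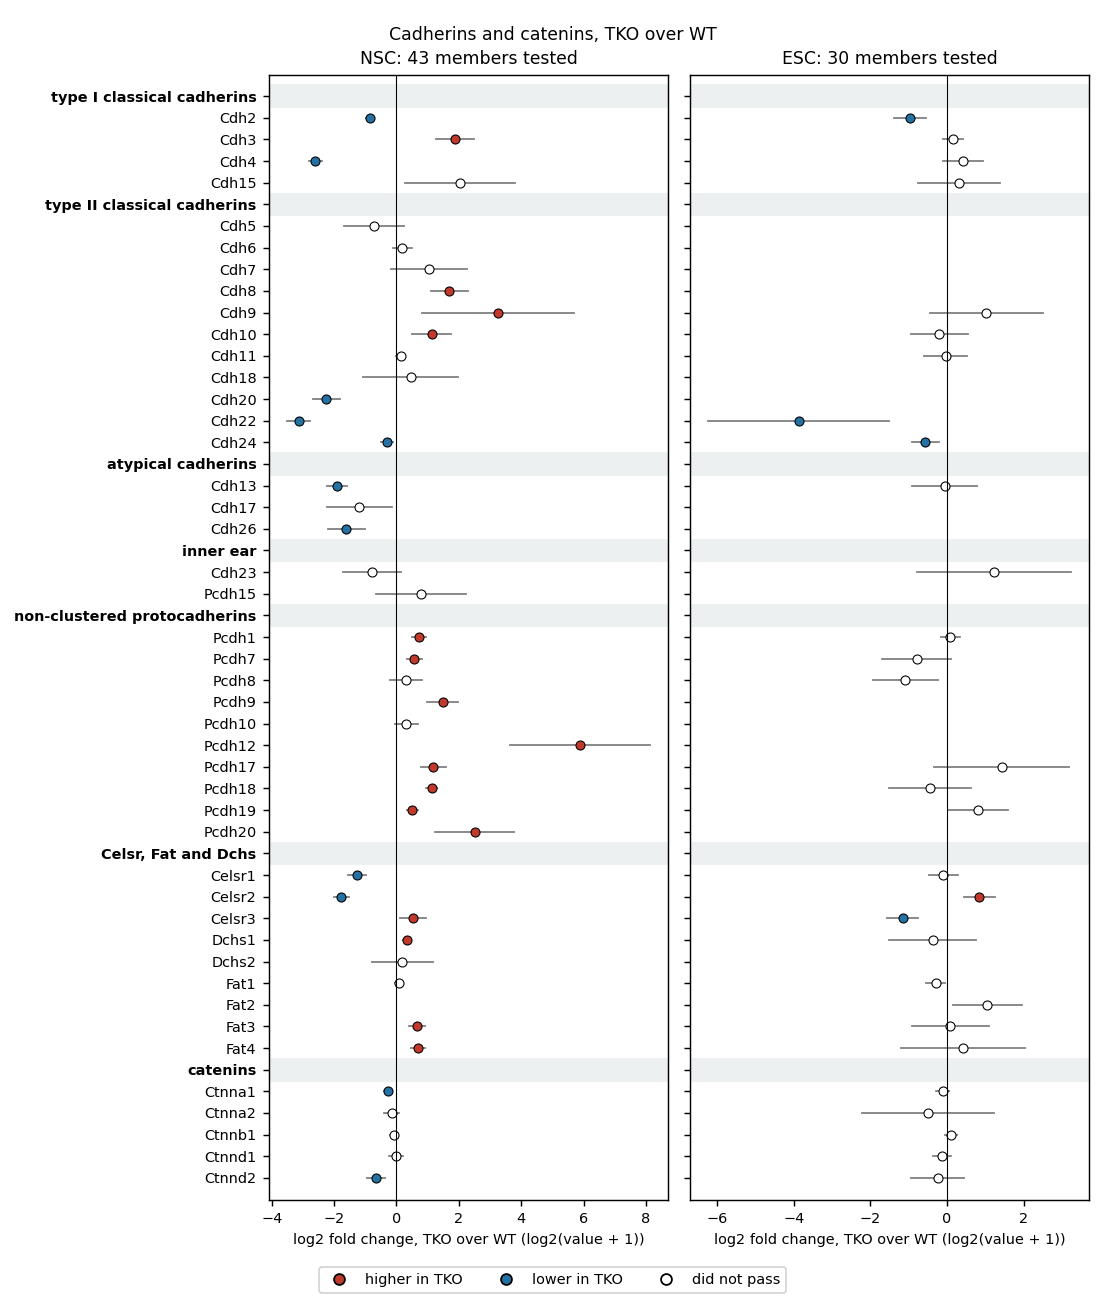
Log2 fold change of each member, TKO over WT, in NSCs (left) and ESCs (right), with 95% confidence intervals of limma as lines and members grouped by role. Red points passed the test as higher in TKO, blue as lower and white did not pass; in NSCs all 10 non-clustered protocadherins lie above 0, while members of the classical cadherins lie on both sides.

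Among the type I classical cadherins, Cdh4 (R-cadherin, a cadherin of retina and brain; chromosome 2, 179442423 to 179899377) changed most. It had 531 and 592 normalized counts in the TKO NSC libraries, against 3376, 3165 and 3676 in the WT NSC libraries. Both TKO libraries were far below every WT library, and the log2 fold change was -2.60 ± 0.10 (with its SE, as for all fold changes; adjusted p = 1.75e-08). Cdh2 (N-cadherin) had 12920 and 14410 in TKO and 24571, 24086 and 24840 in WT. The groups were apart, with a log2 fold change of -0.84 ± 0.06 (adjusted p = 1.52e-06). Cdh3 (P-cadherin, of placenta and epithelia) went the other way, with 807 and 418 in TKO and 143, 191 and 145 in WT. It rose by 1.87 ± 0.28 (adjusted p = 0.000269), although the TKO libraries lay further from each other than the lower of them lay from the highest WT library. Cdh15 (M-cadherin, of skeletal muscle) had 160 and 19.5 in TKO and 14.5, 13.0 and 11.7 in WT, and the log2 fold change of 2.04 ± 0.80 did not pass (adjusted p = 0.0673). It was called by edgeR and by DESeq2 on the recovered reads, and by limma without TKO replicate 2 (adjusted p = 0.00295). TKO replicate 1 alone stood far above the WT libraries. Of 7 muscle and heart genes, 6 rose in TKO NSCs and Acta2, the smooth muscle actin, fell (all genes: 18.2% higher, 19.5% lower). Their sum was 15210 and 7726 in TKO and 77970 to 104668 in WT, and its part in the level of Cdh15 was not tested.

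The type II classical cadherins split, with 3 higher and 3 lower of 11 tested in NSCs, against 18.2% and 19.5% of all genes. Cdh22 (a cadherin of brain and pituitary; chromosome 2, 165111501 to 165234924) had 273 and 407 normalized counts in TKO NSCs, against 2549, 2879 and 3412 in WT NSCs. With no overlap between the groups, Cdh22 fell 8.76-fold (log2 fold change -3.13 ± 0.17, adjusted p = 1.59e-07). Cdh20, a neural type II cadherin on chromosome 1, had 116 and 142 in TKO and 608, 535 and 727 in WT, and fell 4.78-fold (-2.26 ± 0.20, adjusted p = 5.75e-06). Cdh24 fell by 0.30 ± 0.08 (adjusted p = 0.0136). This smallest of the drops was lost without WT replicate 3 or without TKO replicate 2, where the highest adjusted p was 0.0811.

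The 3 type II cadherins that rose in TKO NSCs were Cdh8, Cdh9 and Cdh10, which are known for roles in neuronal circuits. Cdh8 had 253 and 355 normalized counts in TKO and 90.9, 83.4 and 104 in WT. It rose 3.22-fold, with every TKO library above every WT library (1.69 ± 0.27, adjusted p = 0.000468). Cdh10 had 265 and 181 in TKO and 89.9, 121 and 91.3 in WT, and rose by 1.12 ± 0.29 (adjusted p = 0.0102), a call lost without TKO replicate 1 (0.85, adjusted p = 0.130). Cdh9 was low throughout, with 25.7 and 25.4 in TKO and 6.20, 0 and 1.94 in WT. That is 54 reads in TKO and 8 in WT, and the call (3.26 ± 1.11, adjusted p = 0.0378) was lost in 6 of 14 other settings, with either TKO library left out among them (adjusted p = 0.132 and 0.128). Cdh5, Cdh6, Cdh7, Cdh11 and Cdh18 did not pass. Of these Cdh11, known from mesenchyme and bone, had 10581 and 10025 in TKO and 8952 to 9850 in WT (0.14 ± 0.06, adjusted p = 0.109). Cdh5 (VE-cadherin), a defining cadherin of endothelium, had 36.7 and 37.1 in TKO and 45.5 to 82.7 in WT (-0.72 ± 0.43, adjusted p = 0.220).

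The atypical cadherins were all lower in TKO NSCs by their estimates, and 2 of the 3 passed, against 19.5% of all genes lower. Cdh13 (T-cadherin), which is held to the membrane by a lipid anchor and lacks a cytoplasmic tail, had 1395 and 1814 normalized counts in TKO, against 5019, 7431 and 5763 in WT. It fell 3.76-fold without overlap (-1.91 ± 0.15, adjusted p = 2.57e-06). Cdh26 had 138 and 83.9 in TKO and 335, 403 and 263 in WT, and fell 3.04-fold (-1.60 ± 0.28, adjusted p = 0.000794). Cdh17 (a cadherin of liver and intestine) had 22.0 and 27.3 in TKO and 40.8 to 69.3 in WT, and did not pass (-1.19 ± 0.47, adjusted p = 0.0688). Cdh23 and Pcdh15, the tip-link cadherins of hair cells in the inner ear, did not pass either (-0.79 ± 0.42 and 0.80 ± 0.65), and reads of Cdh23 may not be told apart from those of Vsir and Gm17455 within it.

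**Figure D2:**
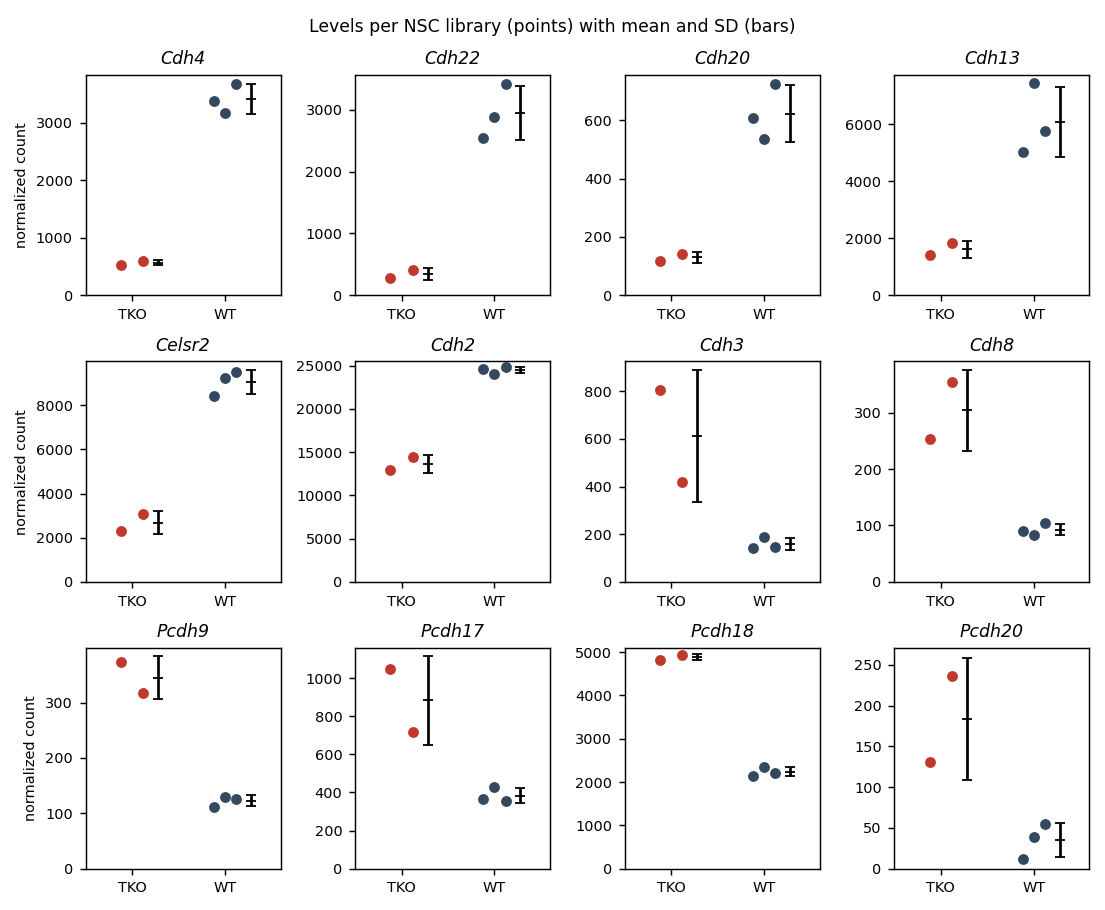
Normalized counts of 12 members in each NSC library (points), TKO left of WT, with the mean and SD of the 2 TKO and 3 WT libraries as bars beside them and each axis starting at 0. Cdh4, Cdh22, Cdh20, Cdh13, Celsr2 and Cdh2 were lower in both TKO libraries than in any WT library, and Cdh3, Cdh8, Pcdh9, Pcdh17, Pcdh18 and Pcdh20 were higher.

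The non-clustered protocadherins were the role with the most members higher in TKO NSCs. Of 10 tested, 8 were higher and 0 were lower, against 18.2% and 19.5% of all genes, with Pcdh12 among the 8. The median log2 fold change was 0.92, against 0.01 over all genes. Pcdh18 had 4826 and 4925 normalized counts in TKO and 2145, 2350 and 2206 in WT. The 2.18-fold rise was far outside the spread within either genotype (1.13 ± 0.07, adjusted p = 7.58e-07). Pcdh17, of neurons and axon bundles, had 1049 and 717 in TKO and 366, 429 and 354 in WT (1.18 ± 0.18, adjusted p = 0.000336). Pcdh9 had 373 and 317 in TKO and 112, 130 and 126 in WT (1.48 ± 0.23, adjusted p = 0.000374). In both, each TKO library was above all WT libraries. Pcdh20 had 130 and 236 in TKO and 12.4, 39.0 and 54.4 in WT. It rose 5.70-fold (2.51 ± 0.58, adjusted p = 0.00530), a call lost without TKO replicate 2 (2.09, adjusted p = 0.0882).

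Pcdh12, a protocadherin of vascular endothelium and trophoblast, was nearly silent in WT NSCs, with 2.07, 0 and 0 normalized counts, against 129 and 56.6 in TKO NSCs (adjusted p = 0.000828). As reads these were 198 in TKO and 2 in WT. The depth-adjusted ratio was 137, with a 95% exact interval of 37.4 to 1138 for reads and 24.0 to 5458 for read pairs. The interval covers counting error only, and the ratio is conditional on the listing of Pcdh12 through TKO. Pcdh12 overlaps Rnf14, so that reads of both may not be told apart if counting ignored strand. Over all genes in NSCs, 18.2% were higher in TKO and 19.5% lower. Of 8 endothelial markers, 7 were listed in NSCs, 5 rose, the receptor gene Kdr fell, and Tie1 was not listed. Their sum was 3334 and 3189 in TKO and 2509 to 3151 in WT. Of 8 markers of trophoblast and epithelium, 7 were listed, 5 rose and 0 fell, and Elf5 was not listed. Their sum was 5755 and 3399 in TKO and 2137 to 2593 in WT. The part of either list in the level of Pcdh12 was not tested. The remaining calls were smaller. Pcdh1 rose by 0.72 ± 0.11, Pcdh7 by 0.57 ± 0.11 and Pcdh19, an X-linked gene whose human counterpart is mutated in an epilepsy, by 0.51 ± 0.08 (adjusted p = 0.000285, 0.00129 and 0.000591). Pcdh8 and Pcdh10 did not pass, with log2 fold changes of 0.31 ± 0.23 and 0.31 ± 0.17.

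Of the 8 large cadherins tested in NSCs, 4 were higher in TKO and 2 were lower, against 18.2% and 19.5% of all genes, and the Celsr genes differed among themselves. Celsr1, which acts in planar polarity and neural tube closure, had 989 and 1390 normalized counts in TKO NSCs, against 2769, 2596 and 3073 in WT NSCs, and fell 2.39-fold (-1.26 ± 0.13, adjusted p = 2.23e-05). Celsr2 (chromosome 3, 108390848 to 108416069), needed with Celsr3 for ependymal cilia, had 2312 and 3059 in TKO and 8436, 9247 and 9490 in WT, and fell 3.40-fold (-1.77 ± 0.11, adjusted p = 3.58e-07). In both genes the highest TKO library was well below the lowest WT library. Celsr3, the family member of axon tract formation, had 603 and 859 in TKO and 465, 436 and 598 in WT. The lower TKO library was just above the highest WT library, and the rise of 0.54 ± 0.19 (adjusted p = 0.0415) was lost without WT replicate 1, WT replicate 2 or TKO replicate 2 (adjusted p = 0.132, 0.131 and 0.366). Of the Fat and Dchs genes, Fat4, Fat3 and Dchs1 rose by 0.69 ± 0.10, 0.65 ± 0.12 and 0.34 ± 0.06 (adjusted p = 0.000208, 0.00110 and 0.000896). Fat4 and Dchs1, the receptor and its ligand, were thus both higher in TKO. Fat1 had 25083 and 22336 in TKO and 21456 to 23029 in WT, which overlap, and Dchs2 did not pass.

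Of the 5 catenins tested in NSCs, 2 were lower in TKO and 0 were higher, against 19.5% and 18.2% of all genes. All 5 estimates were below 0. Ctnnb1 (β-catenin, both a junction protein and the effector of canonical Wnt signalling) had 44154 and 46275 normalized counts in TKO and 46437, 48440 and 49266 in WT. The log2 fold change was -0.09, with a 95% confidence interval of -0.21 to 0.03 (adjusted p = 0.242). Ctnnd1 (p120 catenin, which keeps cadherins at the membrane) had 2913 and 3016 in TKO and 2839, 3425 and 2766 in WT, and the interval was -0.23 to 0.20. Ctnna1 (αE-catenin) had 17702 and 18870 in TKO and 21856, 22568 and 21172 in WT. It fell by 0.26 ± 0.06 (adjusted p = 0.00439), a call lost without TKO replicate 1 (adjusted p = 0.0650), and it overlaps Lrrtm2. Ctnnd2, the δ-catenin of neurons, had 607 and 609 in TKO and 904, 892 and 1095 in WT, and fell by 0.66 ± 0.13 (adjusted p = 0.00188). Ctnna2, the α-catenin of neurons, did not pass (-0.16 ± 0.11, adjusted p = 0.298).

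In ESCs few members changed. Cdh2, Cdh22, Cdh24 and Celsr3 were lower in TKO and Celsr2 was higher, so that 4 of 30 members were lower and 1 was higher, against 7.02% lower and 7.29% higher, or 14.3% in either direction, of all 17033 genes tested. By at least 2-fold, 0 members were higher and 2 lower, against 1.22% and 1.44% of all genes. The median log2 fold change was -0.08 over the members and 0.01 over all genes. Celsr3 had 281 and 277 normalized counts in TKO ESCs, against 779, 553 and 563 in WT ESCs. It fell 2.23-fold without overlap (-1.16 ± 0.19, adjusted p = 0.000659). Cdh2 was low in ESCs, with 241 and 215 in TKO and 406, 517 and 429 in WT, and fell by 0.97 ± 0.20 (adjusted p = 0.00299). Some markers of differentiated cells also fell in TKO ESCs. Of 5 listed markers of mesoderm and primitive streak, 3 fell, with a sum of 1205 and 533 in TKO and 1766 to 2391 in WT. Of 5 listed endoderm markers 2 fell, with a sum of 298 and 208 in TKO and 520 to 569 in WT. Of 7 listed neuron markers 3 fell, with a sum of 11473 and 12267 in TKO and 14069 to 15234 in WT. Not all marker lists fell. Markers of neural stem cells and radial glia had 2 higher and 1 lower of 9. That sum was 41421 and 40589 in TKO and 34886 to 36729 in WT. The trophoblast and epithelium list had 3 lower and 0 higher of 7, and muscle and heart had 1 higher and 1 lower of 5. Endothelium had 2 higher and 0 lower of 6, and pluripotency 4 higher and 0 lower of 8. Neural crest and mesenchyme had 0 called. The part of any list in the lower members was not tested. Celsr2 had 1091 and 1050 in TKO and 770, 438 and 624 in WT. It rose by 0.85 ± 0.19 (adjusted p = 0.00623), and the call was lost without either TKO library (adjusted p = 0.0573 and 0.0636).

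Cdh22 in ESCs had 0 and 1.92 normalized counts in TKO and 19.1, 32.2 and 22.1 in WT, which is 2 reads in TKO and 74 in WT. The depth-adjusted ratio of TKO to WT was 0.0411, with a 95% exact interval of 0.00489 to 0.154 for reads and 0.00101 to 0.244 for read pairs. This ratio is conditional on the listing of Cdh22 in ESCs through WT. The call (adjusted p = 0.0278) was lost without TKO replicate 1 or any of the WT replicates, where adjusted p was 0.0565 to 0.110. Cdh24 had 467 and 623 in TKO and 744, 896 and 760 in WT and fell by 0.56 ± 0.17 (adjusted p = 0.0301). Its call was lost without TKO replicate 1, WT replicate 2 or WT replicate 3, with an adjusted p of up to 0.264, and with each chromosome centred on its own median (-0.46, adjusted p = 0.0856). None of the 5 catenins and none of the 6 tested protocadherins passed with limma, edgeR or DESeq2, and at an unadjusted p under 0.05 there were 0 catenins and 2 protocadherins, Pcdh8 and Pcdh19. Ctnnb1 had 25539 and 27649 in TKO and 26231, 23550 and 24719 in WT (0.10 ± 0.08). Ctnnd1 had 2157 and 1896 in TKO and 2134, 2346 and 2192 in WT (-0.14 ± 0.11), and Ctnna1 had 19434 and 17885 in TKO and 22125, 19565 and 19110 in WT (-0.12 ± 0.08).

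Genes of chromosome 8 were low as a whole in both TKO ESC lines. Their median log2 difference from the WT mean was -0.39 and -0.41 over 844 genes in TKO ESCs, and -0.01 and -0.04 over 861 genes in TKO NSCs. Of the 5 members on chromosome 8 tested in ESCs, Fat1 had 7932 and 7395 in TKO and 11444, 9108 and 7866 in WT. Its log2 fold change was -0.29 ± 0.12 (adjusted p = 0.117) as measured and 0.12 (adjusted p = 0.529) with each chromosome centred on its own median. Cdh3 had 2729 and 3389 in TKO and 2893, 2391 and 2929 in WT. Its estimate of 0.16 (adjusted p = 0.431) became 0.57 (adjusted p = 0.00468) when centred. In NSCs, the calls of Cdh3, Cdh8 and Cdh13 on that chromosome held when centred (adjusted p = 0.000366, 0.000630 and 7.31e-06). Genes of chromosome 11 were high as a whole in TKO, with medians of 0.53 and 0.54 in NSCs and 0.26 and 0.535 in ESCs. On chromosome 6 from 94 Mb on, the medians were 0.52 and 0.54 in NSCs and 0.54 and 0.48 in ESCs. Fold changes of genes that work with the members, given below, are not centred. Where such genes lie in these regions, the shift of the region is included.

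Whether TKO acted alike in both cell types was tested as an interaction, the TKO effect in NSCs minus that in ESCs. Of the 29 members in both tables, 5 passed as higher and 4 as lower, against 10.9% and 9.80%, or 20.7% in either direction, of all 15381 genes. By at least 2-fold, 4 were higher and 4 lower, against 4.69% and 4.53% of all genes. Cdh4 fell in NSCs (-2.60) and was not called in ESCs (0.42), a difference of -3.01 ± 0.25 (adjusted p = 3.21e-06). In ESCs Cdh4 had 272 and 247 normalized counts in TKO and 250, 184 and 159 in WT. Celsr2 fell in NSCs (-1.77) and rose in ESCs (0.85), a difference of -2.61 ± 0.25 (adjusted p = 9.24e-06). Celsr3 did the reverse, rising in NSCs (0.54) and falling in ESCs (-1.16), with a difference of 1.70 ± 0.29 (adjusted p = 0.00104). The estimates of Cdh13 and Celsr1 were near 0 in ESCs (-0.06 and -0.10), and their differences were -1.86 ± 0.31 and -1.16 ± 0.23 (adjusted p = 0.000830 and 0.00286).

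Cdh3 and 3 protocadherins passed as higher in the same test. The difference was 1.71 ± 0.32 for Cdh3, 1.57 ± 0.36 for Pcdh18, 1.37 ± 0.44 for Pcdh7 and 0.64 ± 0.15 for Pcdh1 (adjusted p = 0.00180, 0.00695, 0.0404 and 0.00854). Pcdh1 was lost without TKO NSC replicate 1 (adjusted p = 0.0579). Pcdh7 was lost in 8 of 20 settings, among them 7 of the 10 that leave out 1 library, with an adjusted p of up to 0.150. Cdh2, which fell in both cell types, had a difference of 0.13, with a 95% confidence interval of -0.18 to 0.44. None of the 5 catenins passed with limma, edgeR or DESeq2 or at an unadjusted p under 0.05, and the interval for Ctnnb1 was -0.39 to 0.01.

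**Figure D3:**
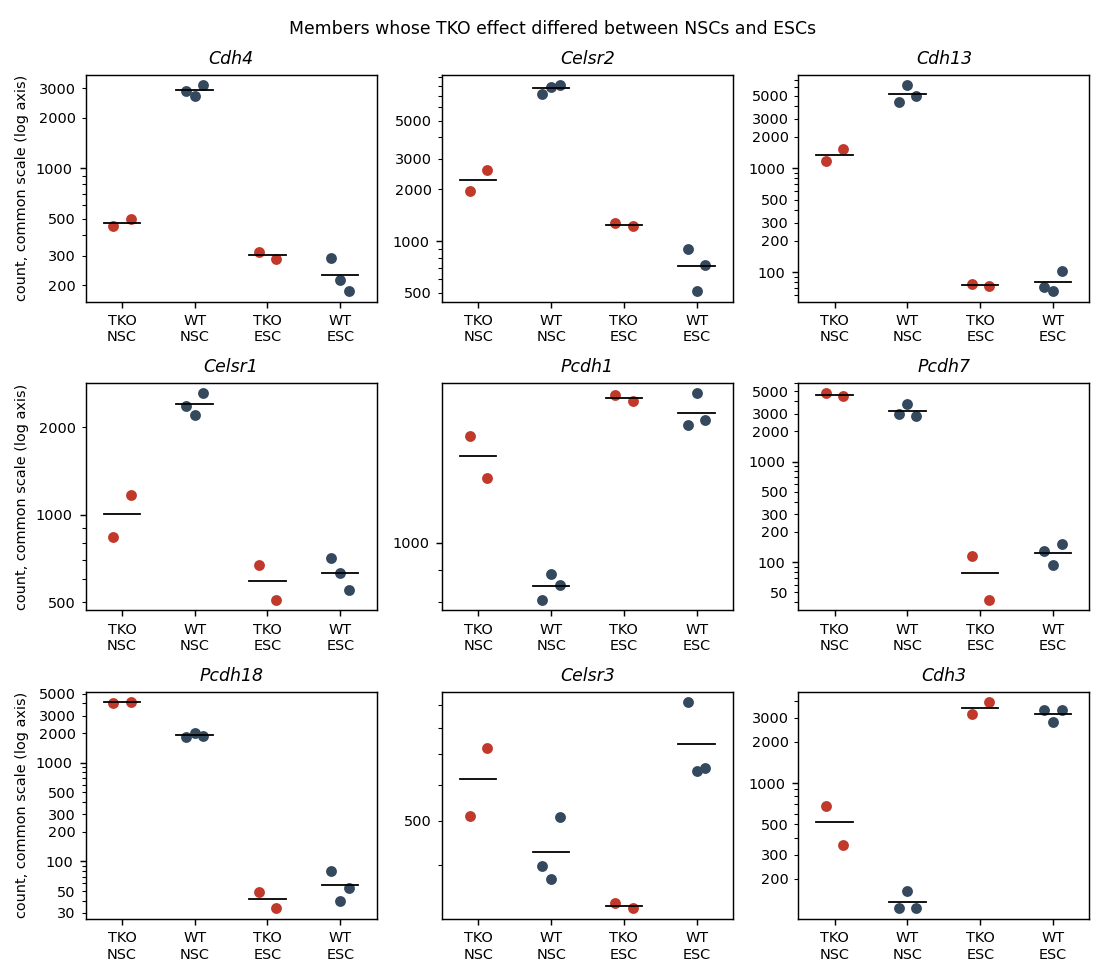
Levels of the 9 members whose TKO effect differed between NSCs and ESCs, as counts of all 10 libraries scaled together, on log axes; points are libraries, TKO red and WT dark, and lines are group means. Cdh4, Celsr2, Cdh13 and Celsr1 are lower in TKO than in WT among NSCs and overlap or are higher among ESCs, while Celsr3 is higher in TKO among NSCs and lower among ESCs.

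Between the cell types, most members rose. In TKO, NSCs over ESCs, 22 of 29 members were higher and 3 lower, against 35.4% and 34.8%, or 70.2% in either direction, of all genes. In WT, 21 were higher and 6 lower, against 37.8% and 37.5%, or 75.3%. By at least 2-fold, 17 were higher and 1 lower in TKO, against 23.8% and 19.5% of all genes, and 19 were higher and 3 lower in WT, against 24.4% and 21.3%. The median log2 fold change was 1.38 in TKO and 2.48 in WT over the members, and close to 0 in both over all genes. These comparisons rest on reads of all libraries scaled together by the median of ratios; scaling to equal totals instead raises the median of all genes by 0.39 in TKO and 0.33 in WT, so that small changes are relative to that choice.

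Cdh2 rose about equally in both genotypes, by 5.44 ± 0.11 in TKO and 5.32 ± 0.09 in WT. On the common scale it had 10941 and 12123 counts in TKO NSCs, 20977, 20523 and 21169 in WT NSCs, 282 and 249 in TKO ESCs and 477, 602 and 498 in WT ESCs. Cdh11, Cdh13, Cdh22, Dchs1, Fat4, Ctnna2, Pcdh7, Pcdh17, Pcdh18 and Pcdh19 also rose by more than 4 log2 units in both. For Cdh22 the value in TKO rests on 2 reads in ESCs. Cdh13 rose by 4.14 ± 0.24 in TKO and by 6.01 ± 0.20 in WT. Cdh4 rose by 0.65 ± 0.20 in TKO and by 3.67 ± 0.16 in WT, and its call in TKO was lost without TKO ESC replicate 2 or TKO NSC replicate 2 (adjusted p = 0.0528 and 0.0590). Celsr2 rose by 0.85 ± 0.20 in TKO and by 3.47 ± 0.16 in WT. Celsr3 was higher in NSCs by 0.90 ± 0.23 in TKO and lower in WT (-0.78 ± 0.19), with group means on the common scale of 617 counts in TKO NSCs, 426 in WT NSCs, 324 in TKO ESCs and 737 in WT ESCs. Cdh3 fell in both, with log2 fold changes of -2.85 ± 0.25 in TKO and -4.55 ± 0.20 in WT.

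The catenins kept nearer to their ESC level, apart from the neural forms. Ctnna2 rose by 5.40 ± 0.59 in TKO and 5.07 ± 0.49 in WT, and Ctnnd2 by 2.05 ± 0.26 and 2.48 ± 0.21. Ctnnb1 rose by 0.30 ± 0.07 in TKO and 0.50 ± 0.06 in WT. Ctnna1 was at -0.49 ± 0.08 in TKO and -0.34 ± 0.07 in WT, past the threshold, but with equal totals its values were -0.10 and -0.01 and did not pass. Ctnnd1 was at 0.09 in TKO and -0.02 in WT and did not pass, whereas with equal totals it was higher in both (0.48 and 0.31). The fall of Pcdh1 in TKO (-0.32 ± 0.12) also depends on scaling and was 0.08 with equal totals, and its call was lost without TKO ESC replicate 1, TKO ESC replicate 2 or TKO NSC replicate 2. The samples of both cell types carry the same codes. A fit with the code as a block changed no call of a member in these comparisons.

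**Figure D4:**
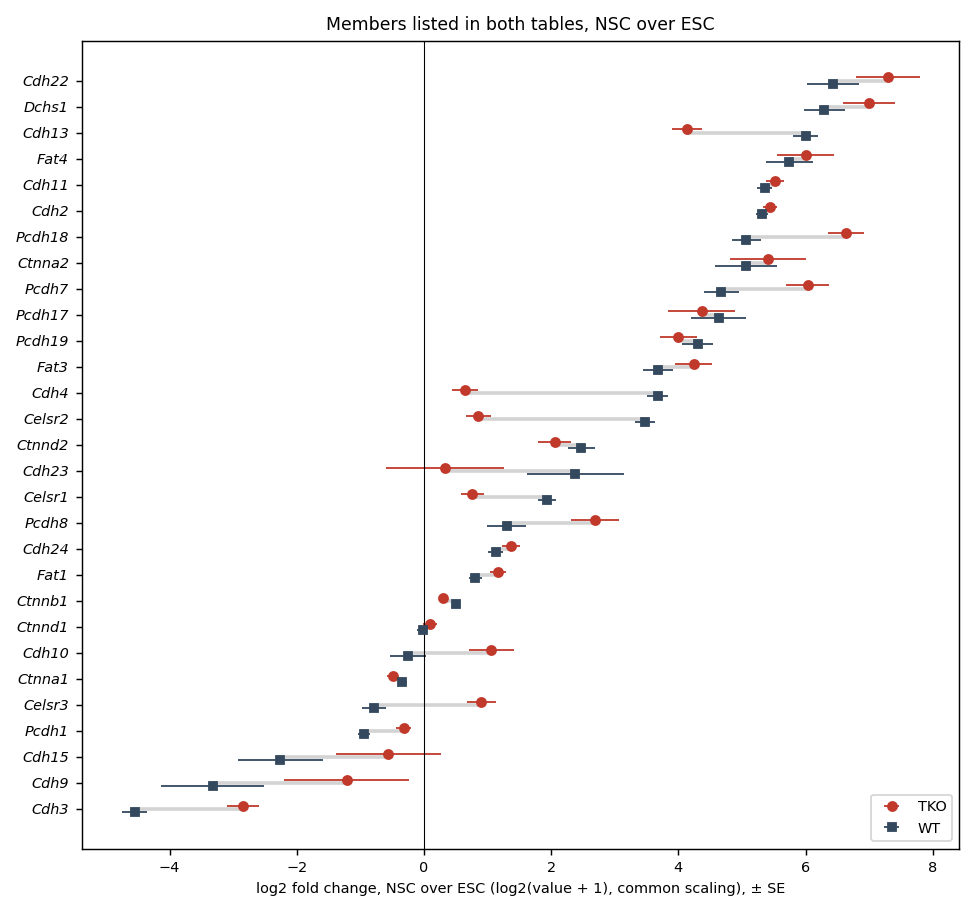
Log2 fold change from ESCs to NSCs (NSC over ESC) with its SE for the 29 members of both tables, TKO as red circles and WT as dark squares joined by a grey line. Cdh2 and Cdh11 have near-equal values, Cdh4, Celsr2 and Cdh13 rise less in TKO than in WT, and Celsr3 lies above 0 in TKO and below 0 in WT.

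Genes that work with the members were taken from lists set by function. The counts in NSCs stand against 18.2% of all genes higher in TKO and 19.5% lower. Of 18 partners of the adherens junction, 10 were lower in TKO and 2 were higher, with a median log2 fold change of -0.42, against 0.01 over all genes. Nectin3, an adhesion molecule of the same junctions, had 3193 and 3636 normalized counts in TKO and 8356, 8761 and 8761 in WT (-1.34 ± 0.07, adjusted p = 1.63e-07). Plekha7, which binds p120 catenin, and Ctnnal1, an α-catenin relative, fell (-1.39 ± 0.09 and -1.02 ± 0.08, adjusted p = 6.82e-07 and 2.06e-06). Jup (plakoglobin, a β-catenin relative of desmosomes and adherens junctions) rose, with 10072 and 10367 in TKO and 3999, 4960 and 3782 in WT (1.28 ± 0.10, adjusted p = 2.69e-06). Of 8 desmosomal genes tested, 3 rose, Jup among them, and 1 fell, the plakophilin Pkp2 (-1.18 ± 0.08, adjusted p = 5.77e-07). Of 6 transcription factors that repress Cdh1, 5 rose and 0 fell, with Twist1 at 1.16 ± 0.07, Snai2 at 1.70 ± 0.22, Twist2 at 2.28 ± 0.36 and Snai1 at 1.26 ± 0.21 (adjusted p = 5.85e-07, 8.97e-05, 0.000421 and 0.000586). Twist2 is also on the list of mesenchymal markers.

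On the lists of the large cadherins' pathways, of β-catenin and of cleavage, genes were called in both directions in NSCs, where 37.7% of all genes were called. Of 12 core genes of planar cell polarity, 5 fell and 4 rose. Fzd3, the Frizzled receptor of that pathway, had 3181 and 4383 normalized counts in TKO and 8783, 8927 and 9505 in WT (-1.28 ± 0.11, adjusted p = 5.20e-06), while Prickle1 rose by 0.91 ± 0.13, Dvl2 by 0.54 ± 0.07 and Ptk7 by 0.51 ± 0.08 (adjusted p = 0.000204, 8.97e-05 and 0.000295). Of 15 genes of the Fat and Dchs pathway and the Hippo core, 7 fell and 3 rose. Fjx1, related to the kinase that modifies Fat and Dchs in Drosophila, fell (-0.94 ± 0.09), as did Lix1l (-0.71 ± 0.07) and Tead1 (-0.48 ± 0.06), and Tead2 rose by 0.35 ± 0.05 (adjusted p = 1.58e-05, 1.41e-05, 8.80e-05 and 0.000330). Of 16 genes of β-catenin turnover and nuclear action, 5 fell and 2 rose, a share near that of all genes. Axin2, a Wnt target that promotes β-catenin turnover, had 1068 and 945 in TKO and 2842, 2971 and 3250 in WT (-1.59 ± 0.09, adjusted p = 3.64e-07). Lef1, a DNA-binding partner of β-catenin, had -1.07 ± 0.16 and Pygo1 -0.87 ± 0.12 (adjusted p = 0.000357 and 0.000133), and Csnk1a1, a kinase of the same complex as Axin2, had -0.27 ± 0.05. Of 11 genes of cadherin cleavage and trafficking, 3 fell and 2 rose, also near the share of all genes, with Adam9 at -0.52 ± 0.07 and Rab11a at -0.52 ± 0.07 (adjusted p = 0.000111 and 0.000177), Psen2 at 0.60 ± 0.15 and Ncstn at -0.28 ± 0.07. Of 6 tested cadherin-related genes and calsyntenins, 2 fell and 2 rose, with Clstn2 at -1.38 ± 0.18, Clstn1 at -0.60 ± 0.06, Clstn3 at 0.82 ± 0.16 and Cdhr4 at 1.68 ± 0.47.

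In ESCs 7.29% of all genes were higher in TKO and 7.02% lower. The β-catenin list had 4 of 16 genes higher and 0 lower, led by Lef1 (0.86 ± 0.15, adjusted p = 0.00101), with 1722 and 2470 normalized counts in TKO and 1223, 995 and 1201 in WT, and Bcl9l (0.79 ± 0.14, adjusted p = 0.00120). The adherens junction list had 2 higher, Magi1 (0.83 ± 0.12) and Jup (0.51 ± 0.08), and 1 lower. Clstn3 and Ret rose by 1.08 ± 0.10 and 1.22 ± 0.31 and Adam10 by 0.55 ± 0.15. With limma, 0 of 12 planar polarity genes, 0 of 15 Fat and Hippo genes and 0 of 6 Cdh1 repressors passed. At an unadjusted p under 0.05 there were 1, 2 and 0, edgeR called 0 on each list, and DESeq2 called 1 on the Fat and Hippo list alone.

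Promoter capture Hi-C gives the distant fragments that each captured promoter contacts. There was 1 library per genotype, so loops are described without a test. Each loop has a score given by the authors, which is at least 5 in both lists. The lists held 51122 distinct loops in TKO NSCs and 51990 in WT NSCs. For the 12 members without a promoter entry, either end of the annotated span stood for the start site, so loops at the other end are included. A start site or such an end lay in a looped fragment for 27 of 44 members. They had 95 loops in TKO and 103 in WT, of which 35 were in both lists. The loops common to both whole lists were not counted. The overlap at members can therefore not be set against all genes. For the totals, TKO over WT was 0.922 at members and 0.983 over the whole lists. Differences at single roles or genes have no such background here. With a score of at least 10, 11 loops were left in TKO and 10 in WT. The type II cadherins had 8 loops in TKO and 24 in WT, where Cdh11 had 0 and 6, Cdh22 had 2 and 5, Cdh6 had 1 and 4, and Cdh24 had 5 and 8. The atypical cadherins had 9 in TKO and 3 in WT, of which Cdh17 had 8 and 3. Pcdh7 had 0 in TKO and 4 in WT although its RNA was higher in TKO.

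At Cdh22, the loop in both lists joined the promoter to a fragment with the start of Slc35c2 (chr2:165285729-165290754), 51.6 kb away, with a score of 5.83 in TKO and 10.11 in WT. Of the 4 loops in WT alone, 3 reached neighbouring fragments at 114 to 125 kb, near the far end of Cdh22, with scores of 5.45 to 6.99. The loop in TKO alone reached the next fragment in the same row, at 109 kb, with a score of 5.26. Celsr2 had 9 loops in TKO and 6 in WT, 5 of them shared, while its RNA was lower in TKO. Its strongest loop in both lists led to a fragment with the start of Elapor1 (chr3:108532185-108537542), 119 kb away, with a score of 24.1 in TKO and 17.1 in WT. A loop in TKO alone, with a score of 6.86, joined the start fragment of Cdh26 with the fragment at one end of the span of Cdh4 over 1012 kb, and it is counted at both genes; RNA of both was lower in TKO. Cdh23 had 20 loops in TKO and 14 in WT, and Dchs1 had 18 and 16, taken at both ends of its span. The fragment at one end of Dchs1 also holds the start of Tpp1, so loops there may belong to Tpp1. A loop that joins both ends (35.6 kb, score 7.31 in TKO and 7.88 in WT) is counted at each end. Cdh2, Cdh13, Cdh20, Ctnnb1 and Fat1 had 0 loops in both lists.

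**Figure D5:**
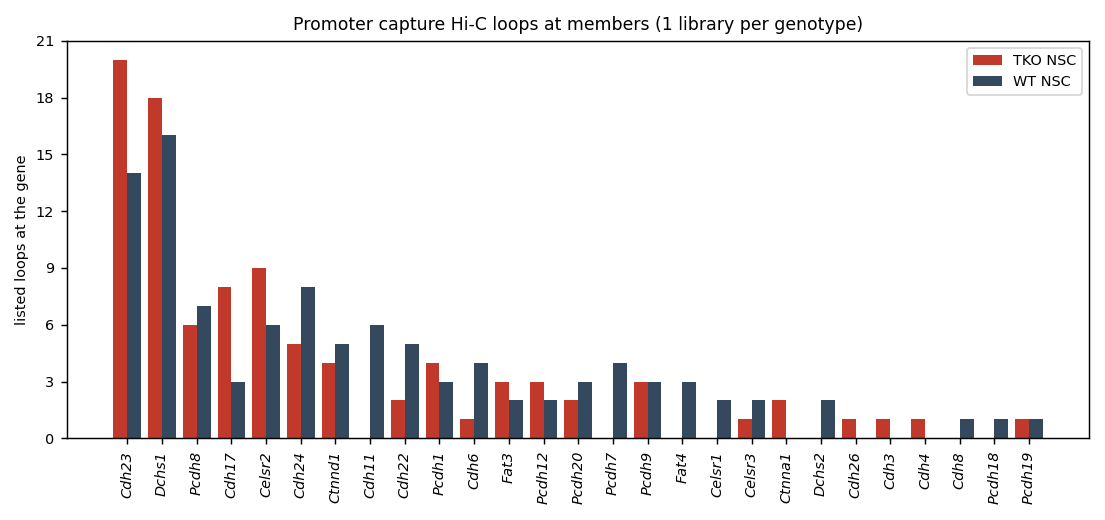
Number of listed promoter capture Hi-C loops at each of the 27 members with any, in the TKO NSC library (red) and the WT NSC library (dark). Cdh23, Dchs1 and Celsr2 have more in TKO, and Cdh11, Cdh22, Cdh24 and Pcdh7 have more in WT. Loops of Dchs1 include those of a fragment that also holds the start of Tpp1.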

How the data were processed

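RNA was measured in 10 libraries, 2 TKO and 3 WT of each cell type, and the deposited signal values are, per the labels, read counts per gene divided by DESeq2 size factors, made by the authors within each cell type. The submitters' processing notes name STAR 2.7.3a among the aligners and counters, with featureCounts, DESeq2 1.40.2 and Trim Galore 0.6.5, and the mouse build mm10. All values were whole multiples of 1 step per library within 1e-06, which gave back the reads (41007791 to 49060991 per library). These appear to count both mates, since 75.2 to 82.7% of low values were even.

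TKO and WT were compared within each deposited table with limma 3.58.1 on log2(value + 1), leaving out genes whose mean was under 10, with Benjamini-Hochberg adjustment over all genes and a threshold of 0.05; the same limma test gives every adjusted p in the text. NSC and ESC libraries were compared on reads of all 10 libraries scaled together by the median of ratios. The interaction was tested on the deposited values of both cell types, because their separate scalings cancel in that contrast. Library totals and read intervals (95%) cover counting error only. edgeR 4.0.16 and DESeq2 1.42.0 on the recovered reads, other pseudocounts (0.5 and 5), filters and scalings, centred chromosomes, a replicate block and leaving out each library were tried as alternatives. The fits were tested on simulated data.

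Codes shared by ESC and NSC samples pair them, by line in TKO, while the labels do not say whether the WT codes are lines. Deviations from the group means correlated by -0.0307 to 0.0306 over genes in these pairs. Gene symbols, and the coordinates of genes, were taken from RefSeq (GRCm38.p6, the assembly of mm10). Loop lists of promoter capture Hi-C were deposited by the authors with a score per loop, which is the authors' own value; the sources used here do not give the caller. Levels in every library are given for members past the threshold and changed at least 2-fold in either cell type and for Cdh2, Ctnnb1, Ctnna1 and Ctnnd1, and of each gene list up to 4 called genes with the lowest adjusted p in NSCs and 2 in ESCs were named. Members and lists were chosen with earlier results of these data known. The series' methylation libraries and those made by CUT&Tag were not used here.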

Additional observations from a re-analysis of the deposited data

Results flagged for a closer look

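For 9 members the effect of TKO differed between NSCs and ESCs by the interaction test of limma, given as the log2 effect in NSCs minus that in ESCs. It was -3.01 for Cdh4, -2.61 for Celsr2, -1.86 for Cdh13 and -1.16 for Celsr1. It was 1.71 for Cdh3, 1.70 for Celsr3, 1.57 for Pcdh18, 1.37 for Pcdh7 and 0.64 for Pcdh1. Celsr2 and Celsr3 passed the test in both cell types and in opposite directions. Groups of 2 and 3 libraries were too small to be screened for single outlying samples.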

How the results depend on the processing

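Of the calls described, 21 of 27 in NSCs, 2 of 5 in ESCs, 7 of 9 of the interaction, 21 of 25 between cell types in TKO and 25 of 27 in WT passed in every alternative run. With 1 library left out, 10 to 11 members were lower and 14 to 16 higher in TKO NSCs. In TKO ESCs 0 to 1 were higher, with 0 without either TKO library, and 2 to 4 were lower, with 2 without TKO replicate 1 or WT replicate 2. The interaction had 3 to 6 higher, with 3 without TKO NSC replicate 1. Settings that leave 1 TKO library assume that it varies like the others. Of all genes in ESCs, 1242 were higher and 1195 lower of 17033 tested, and 505 and 561 without TKO ESC replicate 2. With chromosomes centred, which also left fewer genes tested (15921), there were 782 and 835, and 2 members were higher and 3 lower. With equal totals, 1 member was lower in TKO NSCs than in TKO ESCs, and Ctnnd1 in WT turned to 0.31; the cause is the scaling, which shifts all genes. The loops at members numbered 11 in TKO and 10 in WT with a score of at least 10, and 117 in TKO with every listed line counted.

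TKO and WT samples share only a replicate number, and deviations of same-numbered samples correlated by -0.0209 to 0.00748. With the replicate block, 1 member was higher and 5 lower in TKO ESCs, and 17 higher and 11 lower in TKO NSCs. Cdh22 in ESCs (adjusted p = 0.0516) and Cdh9 in NSCs (0.0713) were not called in that fit of limma, while Fat1 (0.0151) and Pcdh8 (0.0445) in ESCs and Cdh7 (0.0179) and Pcdh8 (0.0400) in NSCs were.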
